A study of Homo sapiens with 197 samples.

Results

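SW39 cells, a transformed derivative of the human lung fibroblast line IMR90, were compared with IMR90 controls by Nanostring counting. The lanes were taken by their titles: 2 titled SW39 and 3 titled IMR90, which makes 5 lanes beside 192 others analysed here. By their titles, the 3 IMR90 lanes come from 2 control wells, and IMR90 control 2 has a second lane. That lane carries the sample number of IMR90 control 1, so which well it came from is not settled, and it was kept apart under its title. According to the labels, the controls received an empty retroviral vector, the counterpart of the vectors that carried activated kinases into the other IMR90 wells, and RNA was taken 4 days after infection. The study's text also calls the IMR90 and SW39 cells read for the tag non-infected, and the labels give the SW39 lanes the same cell line, agent and empty-vector entries as the controls. Only the title and source name thus mark a lane as SW39. SW39 is 1 line, and how it was transformed is not given in the sources used here. Whether replicate lanes came from separate cultures is not stated either, so p-values measure only the spread between these lanes, which may be technical.

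IMR90 cells are normal fetal lung fibroblasts with a limited lifespan, whereas transformed derivatives keep dividing. By the study's text, IMR90 cells also divided during the screens, and division was not measured in these lanes. Dividing cells raise many genes of the E2F program, among them ATAD2, a bromodomain AAA ATPase of chromatin, UHRF1, which recognizes hemimethylated DNA behind the replication fork, and DNMT1, the methyltransferase that UHRF1 recruits there. The TET enzymes act in the other direction and oxidize 5-methylcytosine. ADAM12 is a cell-surface metalloprotease that is abundant in placenta and reappears in several cancers.

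Each lane held 75 probes, of which 42 were for tissue-restricted genes, 15 for other endogenous rows, 4 for housekeeping genes, 6 for positive controls and 8 for negative controls. Total counts of the SW39 lanes were 123789 and 142790, and those of the control lanes 142255, 152599 and 132257 (the second lane last, here and in the following). The kinase wells, here without HK1, which had almost no endogenous counts, ran from 29629 to 340763. A row was taken as above background when it exceeded a level of the mean plus 2 SD over the negative controls in its lane, which lay between 17.1 and 25.9 counts in these 5 lanes. A normalized count is a count scaled by the geometric mean of the lane's positive controls and then by that of PGK1, TBP and TUBB2A, on the mean scale of SW39 and the 2 controls. Over the 16 rows with a median above 100 counts, the SW39 lanes differed from each other by a root mean square of 0.19 on the log2 scale of normalized counts, and from the control lanes by 1.39 to 1.64. The second lane of IMR90 control 2 differed by 0.13 from IMR90 control 1, whose sample number it shares, and by 0.55 from the other lane of its own name, or 0.24 without the row named ZBTB38.

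The names of the 15 other endogenous rows went against their values in part. The row named ZBTB33, a human gene, was above background in every kinase well, in 0 of the 5 SW39 and control lanes and in 1 of 6 lanes of a mixed RNA from human cancer lines. The row named MyrFlag, the tag carried by the kinase vectors, was above background in all of these lanes. The row named ZBTB38 ran from 89.2 to 63729 normalized counts over the kinase wells and was above background in 0 of the 6 mixed RNA lanes. In the order of the files, moving the 15 names by 3 places puts MyrFlag on the row named ZBTB33 and NeoR, a resistance gene, on the row named ZBTB38. The same move puts UHRF1 on the row named Tet1, DNMT1 on MyrFlag, Tet3 on PPM1D, ZBTB38 on Tet3, PPM1D on ITPR2, Tet2 on PLA2R1 and ZBTB33 on Tet2. PuroR, another resistance gene, falls on the row named ZBTB4. The study's text reports the tag for all kinases and no tag in non-infected IMR90 or SW39 cells. The row named ZBTB33 had that pattern, and the row named MyrFlag did not. Which names belong to the other rows was not settled here. All 15 rows are therefore given by their name in the files, and no gene is credited with their values. The names of the 42 tissue-restricted and 4 housekeeping rows are not part of that block.

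To show the sequence beside ADAM12 and beside the gene names that meet on the 2 other endogenous rows with the largest rise, Tet1 and MyrFlag, the RefSeq promoter windows (GRCh38.p14, 250 bases before to 50 after the start, written 5′ to 3′ on the gene's strand) of ADAM12, TET1, UHRF1 and DNMT1 are printed in lower case. Capitals mark an E2F-type motif, searched as TTTCCCGC, TTTGGCGC, TTTCGCGC or TTTGCCGC on either strand. The windows are chr10:126388428-126388727 on the minus strand for ADAM12, chr10:68560087-68560386 on the plus strand for TET1, chr19:4909251-4909550 on the plus strand for UHRF1 and chr19:10194904-10195203 on the minus strand for DNMT1. For TET1 and UHRF1, which have 3 windows each, the window listed first is shown.
ADAM12: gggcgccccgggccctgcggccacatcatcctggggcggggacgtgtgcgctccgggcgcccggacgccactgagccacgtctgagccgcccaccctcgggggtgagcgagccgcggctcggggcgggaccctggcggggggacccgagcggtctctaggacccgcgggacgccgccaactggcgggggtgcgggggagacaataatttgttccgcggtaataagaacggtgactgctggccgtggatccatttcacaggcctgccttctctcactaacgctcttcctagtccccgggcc
TET1: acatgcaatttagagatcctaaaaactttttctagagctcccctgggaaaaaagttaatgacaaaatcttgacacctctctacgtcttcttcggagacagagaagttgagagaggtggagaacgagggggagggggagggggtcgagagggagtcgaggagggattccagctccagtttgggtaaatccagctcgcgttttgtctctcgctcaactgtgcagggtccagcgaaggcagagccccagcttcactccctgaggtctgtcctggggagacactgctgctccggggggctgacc
UHRF1: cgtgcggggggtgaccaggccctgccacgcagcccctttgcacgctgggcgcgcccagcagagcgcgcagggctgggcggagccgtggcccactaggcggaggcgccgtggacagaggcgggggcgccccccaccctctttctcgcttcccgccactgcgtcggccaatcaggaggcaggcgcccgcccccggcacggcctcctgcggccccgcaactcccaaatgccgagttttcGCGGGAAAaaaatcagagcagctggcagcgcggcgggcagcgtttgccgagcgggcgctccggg
DNMT1: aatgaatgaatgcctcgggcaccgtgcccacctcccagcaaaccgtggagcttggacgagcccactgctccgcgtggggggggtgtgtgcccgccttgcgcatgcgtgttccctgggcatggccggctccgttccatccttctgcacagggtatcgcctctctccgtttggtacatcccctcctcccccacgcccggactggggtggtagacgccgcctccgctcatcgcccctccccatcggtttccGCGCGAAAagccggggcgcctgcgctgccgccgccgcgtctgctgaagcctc

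In these windows, the motif began at base 237 in UHRF1 and at base 249 in DNMT1, and none was found in ADAM12 or TET1. PPM1D, TET3 and ZBTB38, whose names meet on other rows that rose and whose windows are not printed, held none either. Of all 35116 RefSeq promoter windows, 3.31% hold such a motif, and 3.99% of the 27305 genes hold it in at least 1 window. Among the 20 gene names looked up, 17 had a window and 4 had a motif in at least 1 of theirs: DNMT1, UHRF1, PLA2R1 and ZBTB4. ATAD2, ITPR2 and KCNA1 had no window. Under their names in the files, the rows DNMT1, UHRF1, PLA2R1 and ZBTB4 had log2 fold changes of -0.39, -0.40, -0.41 and -2.08 in SW39 over the controls. With the names moved, UHRF1 and DNMT1 fall on rows that rose, and PLA2R1 and ZBTB4 on rows without a call. The match is a description of letters, binding was not measured, and a part of E2F in any row was not tested.

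ATAD2 was the tissue-restricted gene with the largest difference, followed by ADAM12, and no other of the 42 passed the test. Raw counts of ATAD2 were 3076 and 3836 in SW39 and 225 in the higher control. Its normalized counts were 2860 and 3241 in SW39 (3051 ± 270, SD, n = 2) against 200.4 and 248 in the controls (224 ± 33.8, SD, n = 2), with the second lane below both. The groups did not overlap, and the lower SW39 lane stood far above the highest control. The fold was 13.6 (log2 fold change of 3.77 with a standard error of 0.20, adjusted p = 2.24e-05 by edgeR's quasi-likelihood test with Benjamini-Hochberg adjustment over the 58 rows, which are the 57 endogenous rows and B2M).

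ADAM12 lay closer to background. Its raw counts were 36, 46 and 30 in the control lanes, each above the level of its lane (25.9, 22.7 and 17.1 counts). In normalized counts, SW39 had 99.5 and 128.4 (SD 20.5, n = 2), the controls 37.97 and 50.8 (44.4 ± 9.04, SD, n = 2) and the second lane 33.4. SW39 was again above every control lane, 2.57-fold in the fit (log2 fold change of 1.36, standard error 0.21, edgeR adjusted p = 0.00503). In the mixed RNA, ADAM12 was between 141.4 and 188.8 normalized counts and ATAD2 between 1572 and 1804.

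Across the 58 rows tested, 6 were higher in SW39 (10.3%) and 2 were lower (3.45%) at an adjusted p of 0.05. The 42 tissue-restricted genes gave 2 of the higher rows and 0 of the lower ones, with 3 at an unadjusted p under 0.05, and the 15 other endogenous rows gave 4 and 2. The median log2 fold change was 0.13 over the 42 tissue-restricted genes, the same as over all 58 rows, and 0.25 over the 15 other rows. Counting lanes alone, both SW39 lanes were above both controls in 21 rows (36.2%) and below both in 8 rows (13.8%). Many of these rows, such as DAZL, SSX1 and FMR1NB, were within background in SW39 and in both controls, where the order of lanes is no measure of expression. With so few lanes, groups can also separate without a difference between the lines. Without IMR90 control 2, edgeR called 0 rows, with 13 at an unadjusted p under 0.05, and without IMR90 control 1 it called 3, namely ATAD2, Tet1 and ZBTB4. In these fits the lone control was assumed to vary like SW39. Without SW39 replicate 1, and likewise without replicate 2, 5 rows were higher and 1 was lower.

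**Figure D1:**
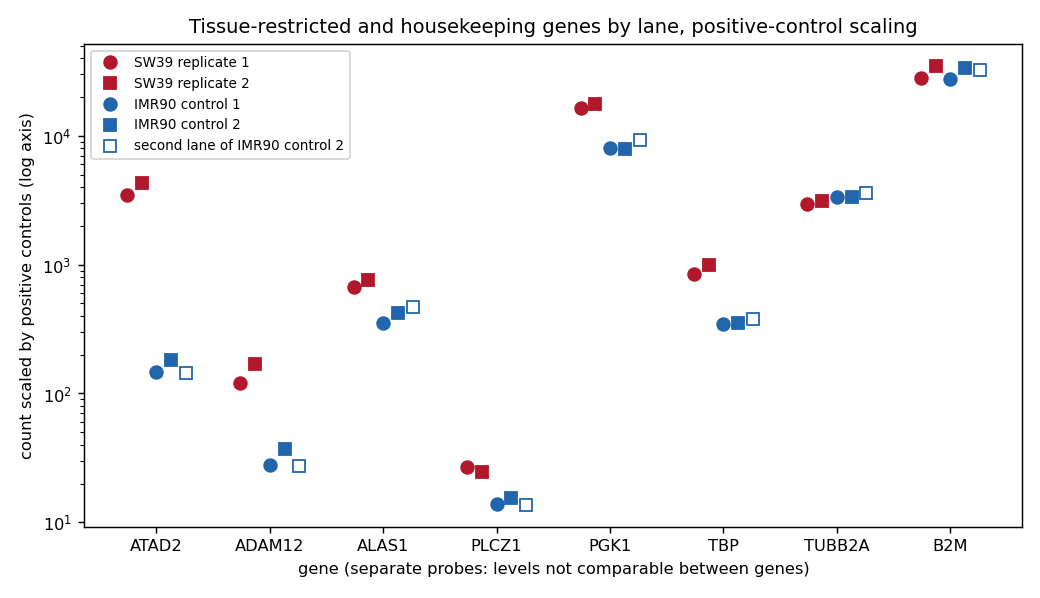
Counts scaled by the positive controls only (log axis) of ATAD2, ADAM12, ALAS1 and PLCZ1 and of the 4 housekeeping genes, with 1 point per lane (SW39 red, IMR90 controls blue, the second lane open). ATAD2, ADAM12, ALAS1, PLCZ1, PGK1 and TBP were higher in both SW39 lanes than in every control lane, PLCZ1 on counts near background. TUBB2A and B2M were at similar heights in all lanes on this scale.

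ALAS1, the first enzyme of heme synthesis, and PLCZ1, a sperm phospholipase, were the other tissue-restricted genes above background in SW39 or in IMR90 control 1 or 2. In the second lane of IMR90 control 2, whose background level was 17.1 raw counts, RNF17 and SPATA22 were also above it, at 18 and 21. For ALAS1, the SW39 lanes held normalized counts of 555 and 575, against 482 and 572 in the controls and 577 in the second lane. PLCZ1 was at 22.3 and 18.6 in SW39 and at 18.99, 20.96 and 16.7 in the control lanes, and its raw count of 24 in SW39 replicate 1 was the only value above the level of its lane. In both genes the groups overlapped on this scale. Their log2 fold changes were 0.10 and 0.03 (edgeR adjusted p = 0.856 and 0.978), each with a sign that changed under other scalings. With positive controls alone both were higher in SW39 without overlap, by 0.88 and 0.80 (edgeR adjusted p = 0.0137 and 0.0367).

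The other 38 tissue-restricted rows were below the background level of the lane in SW39 and in IMR90 controls 1 and 2. Their raw counts ran from 2 to 17 in SW39 replicate 1, from 4 to 17 in SW39 replicate 2, from 2 to 22 in IMR90 control 1, from 2 to 14 in IMR90 control 2 and from 1 to 21 in its second lane. Summed over the 38 rows, the raw counts were 304 and 369 in SW39 and 244, 272 and 283 in the control lanes. SW39 replicate 2 had the highest of these sums, and its 8 negative-control probes were also highest, at 86 counts together against 58 to 78 in the other lanes. Since a count at this level cannot be told from a negative control, a difference in these genes was not detectable here, and their fitted values are no measure of expression.

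By gene list, the 5 MAGE genes, which encode antigens of testis and tumors, had raw counts of 4 to 15 in SW39 and 3 to 11 in the controls, with 0 higher and 0 lower. The 6 other cancer/testis antigens (PRAME, CTAG1B, SSX1, SSX2, XAGE1 and XAGE3) had 5 to 16 in SW39 and 2 to 10 in the controls, with 0 higher and 0 lower. Their median log2 fold change was 0.57, on counts within background. The 6 germ cell RNA-binding and piRNA genes, among them DDX4, PIWIL1 and DAZL, had 4 to 13 in SW39 and 3 to 14 in the controls, again with 0 higher and 0 lower. None of these 3 lists had a gene above background in SW39 or in IMR90 controls 1 and 2. DAZL, an RNA-binding protein of germ cells, had the largest fitted value of these genes, from raw counts of 10 and 11 against 3, 4 and 1. It did not pass (log2 fold change of 1.27, edgeR adjusted p = 0.147). It passed, among other settings, with the second lane summed with either control, added as a control of its own or put in place of IMR90 control 2. The second lane was nearer to IMR90 control 1, whose sample number it shares, and may not be a separate sample from it. Those passes also rest on counts within background.

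The next 2 lists were nearly as low. The 5 genes of germline chromatin and meiosis (BRDT, CTCFL, HORMAD1, RFX4 and SPATA22) ranged from 2 to 17 raw counts in SW39 and from 3 to 16 in the controls. The 7 genes of sperm structure and fertilization, PLCZ1 included, ranged from 4 to 24 and from 2 to 19, and both lists had 0 higher and 0 lower rows. So had the 5 metabolic and signalling enzymes, of which only ALAS1 was above background, at up to 681 raw counts in SW39. Germ cell markers as a set (DAZL, DDX4, RNF17, ASZ1 and SPATA22) summed to 55 and 56 raw counts in SW39 and to 48 and 38 in the controls, with 0 of 5 above background in any of these 4 lanes. Of the placental genes, ADAM12 rose and XAGE3 had a log2 fold change of 0.16. Of the bromodomain genes, ATAD2 rose, whereas BRDT, a testis-specific gene, had a log2 fold change of -0.27 on counts within background.

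Among the 15 other endogenous rows, the row named Tet1 moved most. Its raw counts were 3652 and 4516 in SW39 and 390, 357 and 344 in the control lanes. Its normalized counts were 3396 and 3816 in SW39 (3606 ± 297, SD, n = 2) against 411 and 394 in the controls (403 ± 12.3, SD, n = 2) and 383 in the second lane. SW39 thus stood 8.95-fold above the controls, and the spread within each group was small beside that distance (log2 fold change of 3.16, standard error 0.17, edgeR adjusted p = 2.24e-05). UHRF1 is the name 3 places along.

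The row named MyrFlag came next, with raw counts of 2946 and 3646 in SW39 against 684, 702 and 610 in the control lanes. Normalized counts were 2739 and 3081 in SW39 (2910 ± 242, SD, n = 2) and 721 and 775 in the controls (748 ± 37.6, SD, n = 2). The lanes of the groups did not overlap. The difference was 3.89-fold (log2 fold change of 1.96, standard error 0.17, edgeR adjusted p = 0.000229). The tag is not a human transcript, and neither SW39 nor the controls carried a tagged kinase by the labels. DNMT1 is the name 3 places along, and the row that carries the name DNMT1 was within background in all 5 lanes, at 9 to 14 raw counts.

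The rows named PPM1D and Tet3 rose less. The gene PPM1D encodes a phosphatase that restrains p53 signaling, and the row of that name held 441 and 497 normalized counts in SW39, 186.7 and 233 in the controls and 163.8 in the second lane. The row named Tet3 had 3729 and 3941 in SW39, 2073 and 2137 in the controls and 2083 in the second lane. Both rows were higher in each SW39 lane than in each control lane. The log2 fold changes were 1.16 (standard error 0.16, edgeR adjusted p = 0.00368) and 0.87 (standard error 0.16, edgeR adjusted p = 0.0109). The call for Tet3 was lost under 7 of 22 alternatives, whereas its direction was kept in all of them.

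The lower rows were ZBTB4 and ITPR2. The row named ITPR2, a gene for a calcium release channel of the endoplasmic reticulum, held 441 and 510 normalized counts in SW39, 701 and 772 in the controls and 781 in the second lane, so that every control lane was above SW39. Its log2 fold change was -0.63 (standard error 0.15, edgeR adjusted p = 0.0326), and it turned to 0.15 with scaling by positive controls alone. The call was also lost when any 1 of the 4 lanes was left out, when PGK1 or TBP was left out of the normalizers and with limma. The row named ZBTB4 had raw counts of 5 and 6 in SW39 and 15, 24 and 24 in the control lanes, of which the last 2 were above the level of their lanes. Its log2 fold change of -2.08 (standard error 0.37, edgeR adjusted p = 0.00994) therefore rests on counts near background, and the row was not called once counts were floored at the negative-control level. Nor was it called against the wider set of IMR90 wells described below.

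The other 9 of these rows did not pass. The row named Tet2 had 1029 and 1082 normalized counts in SW39 and 864, 909 and 883 in the control lanes, a narrow gap with no overlap (log2 fold change of 0.25, edgeR adjusted p = 0.394). The row named PLA2R1, a gene for a phospholipase A2 receptor, had 359 and 411 in SW39 and 534, 488 and 577 in the control lanes (log2 fold change of -0.41, edgeR adjusted p = 0.147, and 0.38 by positive controls alone). The row named UHRF1 overlapped between the groups, with 616 and 768 in SW39 and 742, 1081 and 812 in the control lanes.

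The row named ZBTB38 split the controls themselves. It had 1726 normalized counts in IMR90 control 1, 1924 in the second lane and 7634 in IMR90 control 2, which brackets the 5494 and 7121 of SW39. The endogenous rows together had 8779 counts in IMR90 control 1 and 14448 in IMR90 control 2, of which this row had 1636 and 6919. The rows named NeoR (213.8 and 254 in SW39, 198.3 and 192 in the controls) and KCNA1 (60.4 and 69.3 against 64.3 and 67.3) differed little, and PuroR, DNMT1 and ZBTB33 were within background in all 5 lanes. By file names only, the 5 rows named for DNA methylation enzymes and UHRF1 gave 2 higher and 0 lower. The rows with vector names (MyrFlag, NeoR and PuroR) gave 1 higher row, and the 3 with zinc finger names gave 1 lower row. Over all 58 rows tested, 10.3% were higher and 3.45% lower. Since the names are in doubt, these counts describe rows and not groups of genes.

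**Figure D2:**
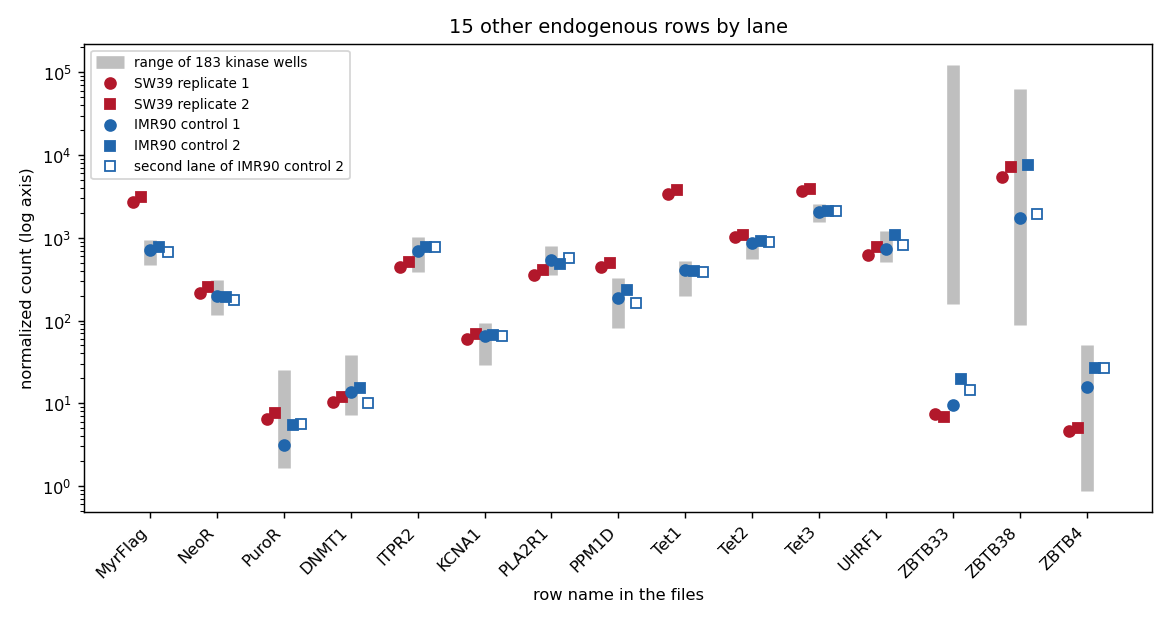
Normalized counts (log axis) of the 15 other endogenous rows under their names in the files, with 1 point per lane (SW39 red, IMR90 controls blue, the second lane open) and a grey bar from the lowest to the highest kinase well. The SW39 points of MyrFlag, PPM1D, Tet1, Tet2 and Tet3 lie above the grey bar, and for ZBTB33 all 5 lanes lie below it.

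The housekeeping genes were examined on counts scaled by the positive controls alone, because the 3 normalizers cannot be tested on values scaled by themselves. PGK1, a glycolytic kinase, had scaled counts of 16369 and 17550 in SW39 and 8077, 7862 and 9253 in the control lanes. It was 2.13-fold higher in SW39, without overlap (log2 difference of 1.09, standard error 0.15, edgeR adjusted p = 0.00113). TBP, the TATA-binding protein, stood at 842 and 991 in SW39 and at 344.5, 353.5 and 381 in the control lanes, 2.63-fold higher in SW39 and again without overlap (log2 difference of 1.39, standard error 0.19, edgeR adjusted p = 0.00113). TUBB2A, a beta-tubulin, was slightly below the controls in both SW39 lanes, at 2968 and 3105 against 3339, 3356 and 3616, with a log2 difference of -0.14 (standard error 0.17, edgeR adjusted p = 0.498). B2M, the light chain of MHC class I, overlapped between the groups, at 28216 and 34945 against 27533, 33852 and 32622, with a log2 difference of 0.04 (standard error 0.17, edgeR adjusted p = 0.817). Without IMR90 control 1 or 2, neither PGK1 (edgeR adjusted p = 0.125 and 0.0644) nor TBP (0.163 and 0.119) passed. In this fit 19 of 61 rows were higher in SW39 (31.1%) and 1 was lower (1.64%). Positive-control scaling raised all rows of SW39 over the controls by 0.78 on the log2 scale relative to housekeeping scaling, or 1.72-fold, and the median row was then at 0.90. RNA input and RNA content per cell cannot be told apart in these lanes, so the absolute direction of a housekeeping gene is not given by either scale.

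Ratios within a lane need no scaling, and they showed that the housekeeping genes did not keep their proportions. TUBB2A over PGK1 was 0.181 and 0.177 in SW39 and 0.413, 0.427 and 0.391 in the control lanes. Over the kinase wells it ran from 0.286 to 0.649, so that 0 wells were as low as SW39. TUBB2A over TBP was 3.53 and 3.13 in SW39 against 9.69, 9.49 and 9.50 in the control lanes and 6.89 to 17.6 in the kinase wells. The pair of SW39 lanes thus lay outside the spread of IMR90 wells in each ratio that involves TUBB2A.

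B2M over PGK1 was 1.72 and 1.99 in SW39 and 3.41, 4.31 and 3.53 in the control lanes, with 2.55 to 8.73 in the kinase wells, again with 0 wells as low as SW39. TBP over PGK1 differed less, at 0.0514 and 0.0565 in SW39 and 0.0426, 0.045 and 0.0411 in the control lanes, and 16 kinase wells were at or above the lower SW39 lane. Against the other 3 housekeeping genes as normalizers, the log2 difference was -0.98 for TUBB2A (edgeR adjusted p = 0.00161) and -0.74 for B2M (edgeR adjusted p = 0.0669). In the same fits PGK1 and TBP were higher in SW39, by 0.66 and 1.06 (edgeR adjusted p = 0.00759 and 0.00176). The mixed RNA also had low ratios, with 0.0718 to 0.0933 for TUBB2A over PGK1 and 0.747 to 0.916 for B2M over PGK1.

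The choice of normalizer therefore moves every fold change of SW39 by the same amount in log2. Leaving TUBB2A out of the normalizers lowered the median log2 fold change by 0.45, and 5 rows were then higher and 8 lower. Leaving out TBP or PGK1 raised it by 0.31 or 0.16, with 7 or 6 rows higher and 1 lower. ATAD2, ADAM12, MyrFlag, PPM1D and Tet1 were higher under each of these and under all 4 housekeeping genes, TMM factors and positive controls alone. Within a lane, ATAD2 over ALAS1 was 5.15 and 5.63 in SW39 against 0.416, 0.434 and 0.303 in the control lanes, and Tet1 over Tet2, by file names, 3.30 and 3.53 against 0.476, 0.433 and 0.434.

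**Figure D3:**
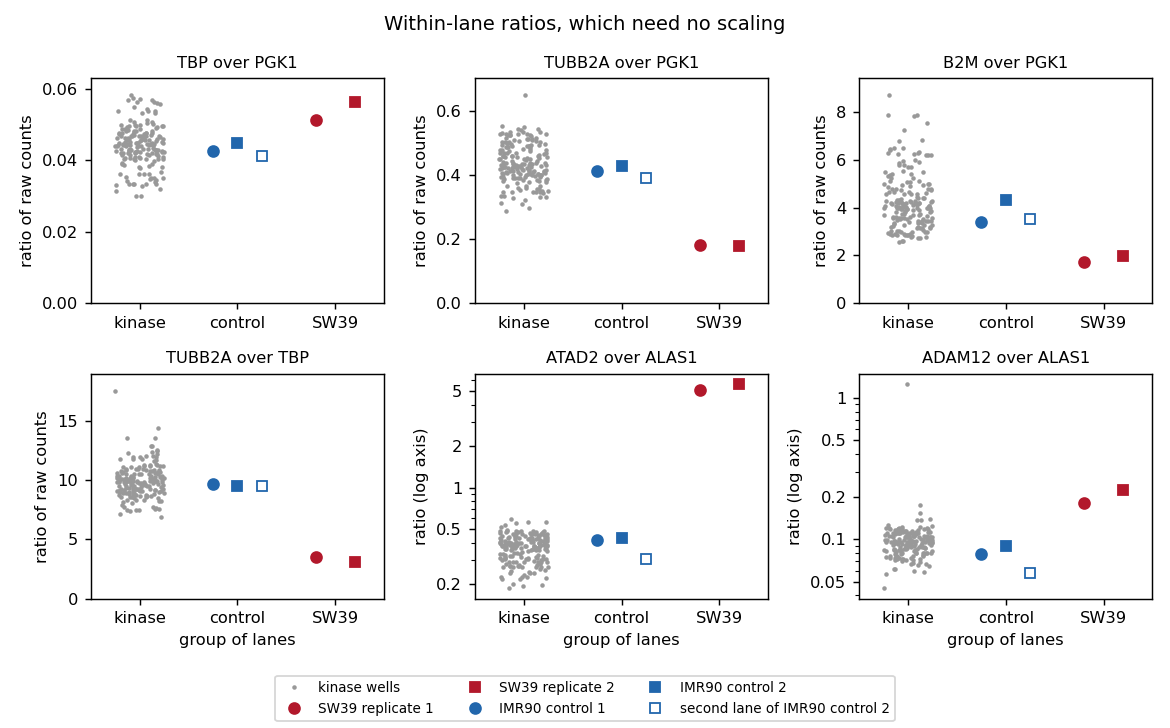
Ratios of raw counts within each lane (linear axes from 0 in the first 4 panels, log axes for the panels with ALAS1) in the kinase wells without HK1 (grey, spread sideways at random), the control lanes (blue, the second lane open) and SW39 (red). The SW39 lanes lay below every kinase well in both TUBB2A ratios and in B2M over PGK1, above every kinase well in ATAD2 over ALAS1, and among the kinase wells in TBP over PGK1.

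**Figure D4:**
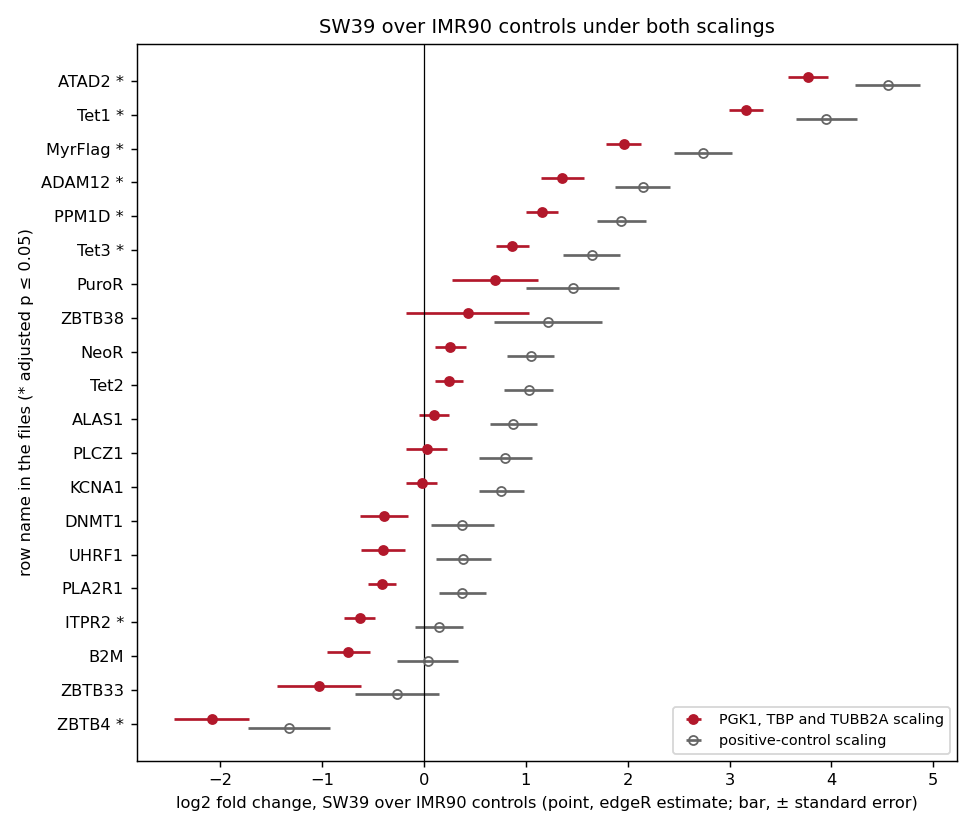
Log2 fold changes of SW39 over the 2 IMR90 controls by edgeR (point, estimate, with a bar of 1 standard error either way) for 20 named rows, with housekeeping scaling (red) and positive-control scaling (open grey). The open points lie to the right of the red ones throughout. ITPR2, PLA2R1, UHRF1, DNMT1, KCNA1 and B2M are below 0 with housekeeping scaling and above 0 with positive-control scaling.

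To set SW39 against the spread of IMR90 cells over many wells, its 2 lanes were compared with the kinase wells and the 2 controls. Each kinase well holds a different kinase, so the wells are no replicates of a condition. The difference in mean log2(normalized count + 1) was tested by a two-sided exact permutation test over all 17391 choices of 2 wells, with Benjamini-Hochberg adjustment over 58 rows. At an adjusted p of 0.05, 7 rows were higher in SW39 (12.1%). Lower were 6 rows (10.3%), among them the row named ZBTB33, in which the controls also lay below every kinase well. Without SW39 replicate 1 there were 6 and 1, and without SW39 replicate 2 there were 6 and 2. This comparison shares the SW39 lanes and the controls with the one above.

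ATAD2 ran from 96.6 to 290 normalized counts over the kinase wells, with a median of 193.6, and 0 wells reached SW39. Its log2 difference was 4.00, at the smallest p that these choices allow (5.75e-05, adjusted p = 0.000476, exact permutation test). The rows named Tet1 (200.6 to 523 over the kinase wells), MyrFlag (465 to 944), PPM1D (81.4 to 326), Tet2 (551 to 986) and Tet3 (1574 to 2592) also stayed below both SW39 lanes in every kinase well. Their log2 differences were 3.29, 2.07, 1.55, 0.50 and 0.91, each at that smallest p. Together with ATAD2, 6 of the 58 rows had both SW39 lanes above every kinase well (10.3%). In 1 row (1.72%), named ZBTB33, both were below every kinase well, as were the controls.

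Tet2, by its name in the files, passed here and not against the 2 controls, where its log2 fold change was 0.25. The row stands out through the narrow spread of the wells, since its highest well was MAPK6 at 986 and SW39 was at 1029 and 1082. With the deposited table or with the HK1 well included the row did not pass.

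ADAM12 overlapped with the kinase wells, which ran from 28.4 to 546. The MAP3K7 well was the highest, and 2 wells were at or above the lower SW39 lane. Its log2 difference was 1.17 (adjusted p = 0.0482, exact permutation test), and the call was lost under 7 of 12 alternatives, among them leaving out either SW39 lane, with adjusted p up to 0.093. ADAM12 was thus within the range that single kinase wells reached, whereas ATAD2 was not.

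The row that was lower in SW39 than in every kinase well was the one named ZBTB33, at 7.44 and 6.76 normalized counts against 159.2 to 121923. The 2 controls, at 9.49 and 19.9, were also below every kinase well in this row. Its pattern is the one reported for the tag of the kinase vectors, and by the labels neither SW39 nor the controls carried a tagged kinase. This call thus sets the kinase wells apart from lanes without a kinase and is not particular to SW39. B2M was at 23408 and 26422 in SW39, and 1 kinase well was as low as the higher of these, with a log2 difference of -0.85 (adjusted p = 0.0482, exact permutation test). The rows named ITPR2 and PLA2R1 had log2 differences of -0.60 and -0.53 (adjusted p = 0.012 and 0.00296, exact permutation test), and both lay within the range of the wells. All 3 calls were lost with all 4 housekeeping genes as normalizers, with positive controls alone, with the HK1 well, in the deposited table and when either SW39 lane was left out. The row named ZBTB4, called lower against the 2 controls, did not pass here (log2 difference of -0.91, adjusted p = 0.386, exact permutation test). Its median over the kinase wells was 10.2 normalized counts, 20 wells were above background, and 29 were at or below the higher SW39 lane.

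FMR1NB and DDX53, testis genes named after their values were seen, also passed as lower, with log2 differences of -1.22 and -1.09 (adjusted p = 0.000834 and 0.0215, exact permutation test). FMR1NB stood at 7.44 and 10.1 normalized counts in SW39 against 9.09 to 54.3 over the kinase wells, and DDX53 had 9.30 and 6.76 against 6.58 to 49.8. In SW39 both genes were within the range of the negative controls, so that a lower level than in the wells was counted without a level of its own. Of these 2, neither was called with positive controls alone. Over all 58 rows the median was -0.37 against the wells and 0.13 against the 2 controls, each on the log2 scale.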

How the data were processed

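Nanostring counts of SW39 and IMR90 cells were analysed under the groups given by titles and source names. The deposited per-lane files held raw counts, whole numbers without normalization. The deposited table of the series held a signal, which in 189 of the 197 lanes was the count times 1 factor per lane and in the other 8 the count itself, and it served as an alternative. The authors scaled counts by positive controls and by PGK1, TBP and TUBB2A, and no background was subtracted here. Members and gene lists were chosen with earlier results of these data known. Named were the 15 other endogenous rows, the 4 housekeeping genes, ATAD2, ADAM12 and the tissue-restricted genes above background or called. Counts were tested in R 4.3.3 with edgeR 4.0.16 (quasi-likelihood, offset from the 3 genes), alternatively with limma 3.58.1 or DESeq2 1.42.0, and in Python 3.11.15 by permutation (pseudocount of 1). The HK1 well, with 92 endogenous counts, was left out, leaving 183 kinase wells and 185 wells in all. On simulated counts of the 58 rows in SW39 and the controls, edgeR recovered 43.8% of the rows raised 2-fold and all 80 raised 4-fold. All 80 raised 8-fold were recovered too. Of the calls at 2-fold, 4-fold and 8-fold, 5.41%, 4.76% and 6.98% were false. The 3 normalizers kept their real counts, so a shift of the normalizers was not covered. Only the more abundant rows were raised, with a common dispersion for all rows, so rows within background were not covered. Accessions of 55 of the 61 endogenous and housekeeping rows matched RefSeq. The second lane entered only alternatives, and it may not be a separate sample from IMR90 control 1. Alternatives covered the control lanes, normalization, tool, pseudocount, filters, floor, replicate block, wells and each replicate left out.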

Additional observations from a re-analysis of the deposited data

How the results depend on the processing

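Against the 2 controls, ATAD2 kept its direction and its call under 22 of 23 alternatives (log2 fold change of 3.30 to 4.55, adjusted p of 2.5e-162 to 0.0558) and ADAM12 under 21 of 23 (from 0.90 up, adjusted p of 1.62e-12 to 0.277). With 1 replicate left out, the higher rows numbered 0 to 5 and the lower rows 0 to 1. The higher rows, 6 as reported, became 10 with the second lane in place of IMR90 control 2, 17 with positive controls only and 2 without the 15 other endogenous rows, a setting chosen after seeing the data. The lower rows, 2 as reported, became 6 with the second lane summed with IMR90 control 2, 4 with it as a control of its own, 5 with it in place of IMR90 control 2, 5 with TMM factors, 8 without TUBB2A among the normalizers, 0 without the 15 rows, and 1 with positive controls only, without PGK1, without TBP and with limma in its 3 forms. The replicate numbers were not taken as pairs. Over 2 pairs, same-numbered samples had deviations with a correlation of 0.20 over 58 rows, or 0.60 over the 15 rows above background. Without the row named ZBTB38 the latter was 0.41. So few pairs cannot show whether the numbers pair samples. With the replicate block 6 rows were higher and 3 lower, B2M being added, and in the housekeeping comparison the block left the calls as they were.

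Signs that turned in rows without a call were, with TMM factors, ALAS1 at -0.06 and PLCZ1 at -0.14; without TUBB2A, ALAS1 at -0.36, PLCZ1 at -0.43, NeoR at -0.20, Tet2 at -0.21 and ZBTB38 at -0.03; with DESeq2's own size factors, ALAS1 at -0.03 and PLCZ1 at -0.11. With positive controls only, DNMT1 was at 0.38, ITPR2 (called in the reported fit) at 0.15, KCNA1 at 0.76, PLA2R1 at 0.38, UHRF1 at 0.39 and B2M at 0.04. With the floor, PLCZ1 was at -0.37 and PuroR at -0.57. KCNA1 was at 0.01 with the second lane in place of IMR90 control 2, 0.16 with 4 housekeeping genes, 0.14 without PGK1 and 0.29 without TBP. With a replicate left out, ALAS1 ranged from -0.02 to 0.23, PLCZ1 from -0.10 to 0.16, ZBTB38 from -0.28 to 1.87 and KCNA1 from -0.12 to 0.07.

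Against all IMR90 wells, the higher rows (7) became 4 with the HK1 well, 4 in the deposited table and 1 without the 15 rows, and 6 without either SW39 replicate. The lower rows (6) became 1 with HK1, 2 with 4 housekeeping genes, 1 with positive controls only, 1 in the deposited table, 3 with the filter on low rows and 1 without the 15 rows, and 1 to 2 with an SW39 replicate left out. PuroR turned to -0.04 with HK1 and -0.03 with a pseudocount of 5, and lay between -0.09 and 0.10 with an SW39 replicate left out, and UHRF1 to 0.15 with positive controls only. With a replicate left out, PGK1 ranged from 1.04 to 1.14 and TBP from 1.27 to 1.51, both without a call when either control was left out (1.07 to 1.11 and 1.37 to 1.41), and B2M from -0.12 to 0.20. Against the other 3 genes B2M was at -0.74, TUBB2A, at -0.98, passed, and PGK1 and TBP, at 0.66 and 1.06, stayed higher. The cause of these changes was not tested.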
